A study of Mus musculus with 9 samples.

Results

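The genes described here are 10 dendritic cell (DC) cytokine genes, chosen by symbol from the GENCODE M21 annotation, among the 51912 genes of the deposited count table. They are Il12a, Il12b, Il23a, Il1a, Il1b, Il18, Tnf, Il6, Il15 and Tgfb1, and all 10 were present in the table. They were measured by bulk RNA-seq of total RNA in 9 samples of pre-cDCs, the precursors of conventional DCs (cDCs) that leave the bone marrow (BM) and seed peripheral tissues. The cells came from untreated mixed BM chimeras, made by lethal irradiation of recipients (BL/6, CD45.1/2) and transfer of BM from a pair of donors in equal parts, and cells of 2 mice were pooled for each sample. One donor was WT, of strain BL/6 with CD45.1, and the other lacked DNGR-1 through the Clec9aCre/Cre alleles and carried CD45.2 (DNGR-1 KO, here KO). The study used 6 mice in total, so some of the 9 samples came from the same mice, and the sources do not say which. There were 3 WT and 3 KO samples of BM and 1 WT and 2 KO samples of spleen. DNGR-1, the product of Clec9a, is a C-type lectin receptor of the cDC lineage that binds actin exposed by dead cells. Cells of both genotypes had developed in irradiated hosts, and the KO allele has Cre inserted in Clec9a in every cell of that donor. The labels of the WT samples are divided over the congenic marker, which is CD45.1 or CD45.2 depending on the field.

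DC cytokines carry instructions to the lymphocytes that DCs prime. IL-12 is a pair of the p35 chain (Il12a) and the p40 chain (Il12b), and p40 with the p19 chain (Il23a) makes IL-23. IL-1α, IL-1β and IL-18 belong to the IL-1 family, and IL-1β and IL-18 are made as precursors that caspase-1 cuts. TNF and IL-6 are early inflammatory cytokines. IL-15 is presented on its own receptor chain, IL-15Rα, to NK cells and CD8 T cells, and TGF-β1 is secreted in a latent form that must be activated.

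The total count was 17103806 to 23722298 per sample, and 3 counts, taken here as the smallest detectable amount in a library, equalled 0.127 to 0.18 CPM (counts scaled to a common library size) after TMM normalization. Clec9a had 905 to 1766 counts in the WT BM samples and 2459 in the WT spleen sample, against 0 or 1 count in the 5 KO samples, as the genotype labels would have it. Of 12 DC and pre-cDC markers, 11 or 12 exceeded 3 counts in every sample. Their summed level was 3955 to 10727 CPM in BM and 13544, 31654 and 9064 CPM in the WT spleen sample and KO spleen samples 1 and 2. The spleen samples also held transcripts that mark other cells. Summed over 7 T cell markers (Cd3d, Cd3e, Cd3g, Cd2, Cd247, Lck and Trac), the level was 1.02 to 9.46 CPM in BM and 836, 1142 and 3653 CPM in the WT spleen sample and the KO spleen samples 1 and 2. The sum of 7 NK cell markers was 46.7 to 108 CPM in BM and 765 to 2027 CPM in spleen, although the sorting gate removed cells that stained for CD3 or NK1.1. The sum of 7 neutrophil and granule markers went the other way, at 839 to 2630 CPM in BM and 0 to 0.977 CPM in spleen. Monocyte and macrophage markers (1621 to 2585 CPM in BM, 1426 to 2293 in spleen), B cell markers (37.4 to 58.5 and 34.8 to 47.1) and plasmacytoid DC markers (567 to 857 and 431 to 952) had overlapping sums. Of the 7 monocyte and macrophage markers, 6 were tested between tissues and 1, Adgre1, was called higher in spleen, beside 7.28% of all genes. It was at 4.53 ± 3.18 CPM in BM and 87.1 ± 32.3 CPM in spleen (± SD, edgeR adjusted p = 0.00138, threshold 0.05). The other 5 were not called, nor was Cd79b, the 1 B cell marker tested. In BM, the B cell marker Ms4a1 had 0 or 1 count. In the WT and KO spleen samples 1 and 2 it had 0, 213 and 222. In bulk RNA, a change in the share of cells that express a gene and a change of RNA per cell cannot be told apart.

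The genes lie on 9 chromosomes of GRCm38, with Il1a (ENSMUSG00000027399, chr2:129299610-129309972) and Il1b (ENSMUSG00000027398, chr2:129364570-129371139) near each other on the minus strand of chromosome 2. The IL-12 family genes are on 3 chromosomes: Il12a (ENSMUSG00000027776) at chr3:68690644-68698547 on the plus strand, Il12b (ENSMUSG00000004296) at chr11:44400063-44414033 on the plus strand, and Il23a (ENSMUSG00000025383) at chr10:128296139-128298752 on the minus strand. Il18 (ENSMUSG00000039217) is at chr9:50554827-50581840, Il6 (ENSMUSG00000025746) at chr5:30013114-30019981 and Tgfb1 (ENSMUSG00000002603) at chr7:25687002-25705077, all on the plus strand. Tnf (ENSMUSG00000024401) is at chr17:35199381-35202007 and Il15 (ENSMUSG00000031712) at chr8:82331632-82403222, both on the minus strand. Il1a, Il1b and Il18 overlap annotated genes on the opposite strand (Gm14023; Il1bos; Bco2 and Tex12), and reads of such partners cannot be told apart without strand, whose use in counting is not given in the sources used here.

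The windows of 250 bases before the start sites of Il12a, Il12b and Il18 are shown from RefSeq (GRCm38.p6), 5′ to 3′ on the plus strand. The levels of Il12a and Il18 set every spleen sample apart from BM. Il12b did so for all but KO spleen sample 1, where it was at 0 counts as in BM. Il12a has a pair of annotated starts, each with its own window, and the RefSeq start of Il18 lies upstream of the GENCODE start given above. Capitals mark matches to GAGGAA, the core bound by the myeloid factor PU.1, on either strand.
Il12a, first start (chr3:68690394-68690643, + strand): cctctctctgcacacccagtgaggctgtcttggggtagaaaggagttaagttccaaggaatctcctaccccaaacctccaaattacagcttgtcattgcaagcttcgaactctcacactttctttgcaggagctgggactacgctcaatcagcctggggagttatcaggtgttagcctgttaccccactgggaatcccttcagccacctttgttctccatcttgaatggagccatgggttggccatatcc
Il12a, second start (chr3:68691174-68691423, + strand): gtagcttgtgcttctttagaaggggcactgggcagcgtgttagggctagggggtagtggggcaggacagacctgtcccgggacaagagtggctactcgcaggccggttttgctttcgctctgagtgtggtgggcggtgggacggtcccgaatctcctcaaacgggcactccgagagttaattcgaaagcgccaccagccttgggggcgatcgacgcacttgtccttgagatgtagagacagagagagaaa
Il12b (chr11:44399813-44400062, + strand): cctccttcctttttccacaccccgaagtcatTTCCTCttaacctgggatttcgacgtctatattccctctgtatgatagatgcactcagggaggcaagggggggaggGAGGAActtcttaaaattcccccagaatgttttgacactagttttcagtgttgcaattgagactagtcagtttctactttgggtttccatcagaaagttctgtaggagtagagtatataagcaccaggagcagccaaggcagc
Il18 (chr9:50554450-50554699, + strand): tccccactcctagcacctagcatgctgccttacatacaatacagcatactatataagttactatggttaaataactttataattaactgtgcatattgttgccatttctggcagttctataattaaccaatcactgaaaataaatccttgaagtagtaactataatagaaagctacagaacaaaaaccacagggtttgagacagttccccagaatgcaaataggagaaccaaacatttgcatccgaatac
The Il12b window held 2 matches to the PU.1 core, at 219 to 214 and 143 to 138 bases before the start, and the windows of Il12a and Il18 held none. Of the 8 listed genes with a window (Il15 and Il23a have none), 3 held this core (Il1a, Il12b and Tnf), against 23.3% of all 32851 windows in the table. The 10-base kappaB consensus, bound by NF-κB, was found on either strand in Il6 and Tgfb1, against 7.25% of all windows. The interferon response core (GAAA, any 2 bases, GAAA) was in none of the 8, against 2.98% of all windows. These matches are letters in a window and were not tested as binding sites.

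Across the 9 samples, 4 of the 10 genes (Il15, Il18, Tnf and Tgfb1) had more than 3 counts in every sample, Il12a and Il1b did so in every BM sample but not in every spleen sample, and Il6 and Il23a did so in none. Il12b and Il1a did so in 2 samples each. Il23a had 0 counts in all 9 samples. Il6 had 1 count in the WT BM sample 2, 1 in the KO BM sample 1 and 0 in the others, so neither gene was detectable at this depth. On the scale of CPM per kilobase of merged exons, which allows genes to be compared, Il12a was the highest in BM at 8.22 ± 3.50 (SD, n = 6). Next in BM came Tnf at 3.13 ± 0.92, Il15 at 1.45 ± 0.88, Il18 at 1.25 ± 0.55 and Tgfb1 at 0.873 ± 0.259, and the ranges of neighbours in this order overlapped. Il1b at 0.301 ± 0.097 came next, below the range of Tgfb1 but overlapping those of Il15 and Il18, and Il1a at 0.0658 ± 0.0328 lay below Il1b. In spleen, the order was Il18 at 14.3 ± 4.9 CPM per kilobase (SD, n = 3), Tnf at 8.51 ± 6.35, Il12b at 7.45 ± 6.52, Il15 at 6.76 ± 2.03, Il1b at 2.35 ± 2.72, Il1a at 1.30 ± 2.25, Tgfb1 at 0.726 ± 0.325 and Il12a at 0.391 ± 0.677. Every neighbouring pair in the spleen order overlapped in range, and Il12a, first in BM, was last there.

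**Figure D1:**
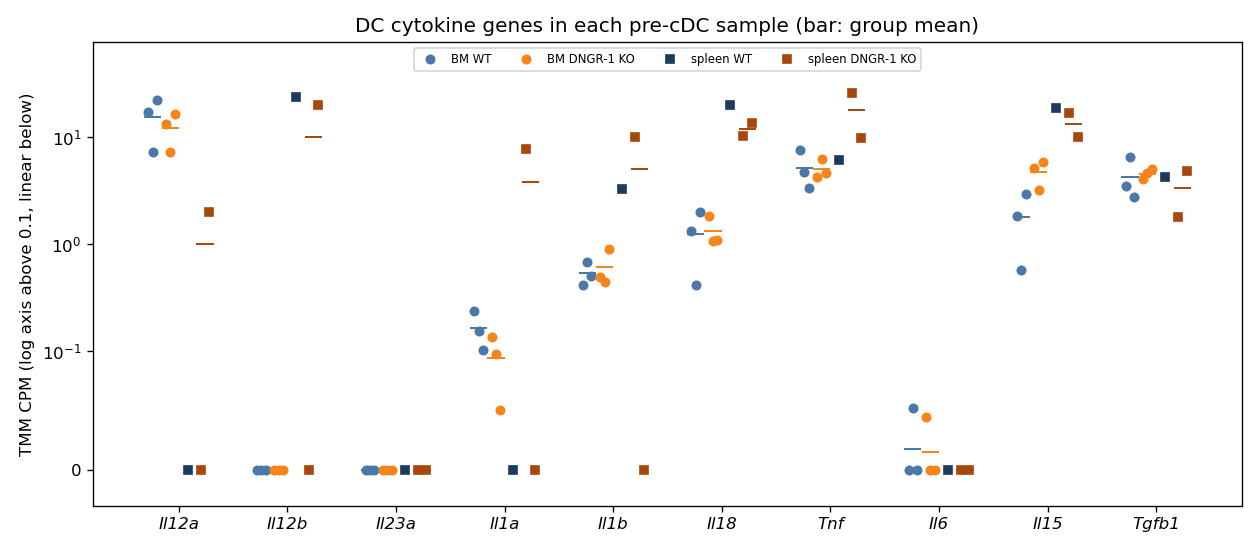
TMM-normalized CPM of the 10 cytokine genes (vertical axis, logarithmic above 0.1 CPM and linear below) in each of the 9 samples, with circles for BM, squares for spleen, blue for WT, orange and brown for KO, and bars at the means of groups with more than 1 sample. Il18 and Il15 sit higher in all 3 spleen samples than in any BM sample, Il12a sits lower, and Il12b, Il1a and Il1b are spread over the spleen samples between 0 and 23.7, 7.70 and 10.2 CPM.

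Il12a was detected in every BM sample and Il12b in none, and the spleen samples differed among themselves in both genes. Il12a was at 17.4, 7.28 and 22.3 CPM in WT BM samples 1 to 3 and at 13.2, 7.27 and 16.5 CPM in the KO BM samples. In spleen it was at 0 counts in the WT sample and in KO sample 1, and at 1.996 CPM (47 counts) in KO sample 2. Every spleen sample was thus below every BM sample, as for 17.4% of all genes tested. Against the 3 counts that a library at 0 allows, the lowest BM sample was at least 40.6-fold above the WT spleen sample and at least 43.1-fold above KO spleen sample 1.

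Il12b, the partner chain, had 0 counts in all 6 BM samples. It had 23.7 CPM (398 counts) in the WT spleen sample, 0 counts in KO spleen sample 1 and 20.3 CPM (477 counts) in KO spleen sample 2. Against 3 counts in 1 BM library, Il12b was at least 132-fold higher in the WT spleen sample and at least 113-fold higher in KO spleen sample 2. No BM sample held both chains of IL-12 above 3 counts, and of the spleen samples only KO sample 2 did. KO spleen sample 1 held neither.

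Other subunits of the family did not follow Il12a. Ebi3, whose product pairs with p35 in IL-35 and with p28 in IL-27, was at 12.4 to 25.6 CPM in BM and at 13.1, 44.0 and 17.6 CPM in the WT and KO spleen samples 1 and 2. Its tissue difference was 0.18 ± 0.44 (log2, SE; edgeR adjusted p = 0.832). Il27, the p28 chain, was at 0 to 0.254 CPM in BM and at 9.18, 2.81 and 0 CPM in the same spleen samples. Of the IL-12 receptor chains, Il12rb2 was at 1.80 to 24.4 CPM in BM and at 81.9, 15.5 and 3.99 CPM in spleen. Il12rb1 was at 0 in the WT spleen sample and KO sample 1, and at 10.6 CPM in KO sample 2, the spleen sample with the highest sum of T cell markers. Il23r was at 0 in all 9 samples.

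**Figure D2:**
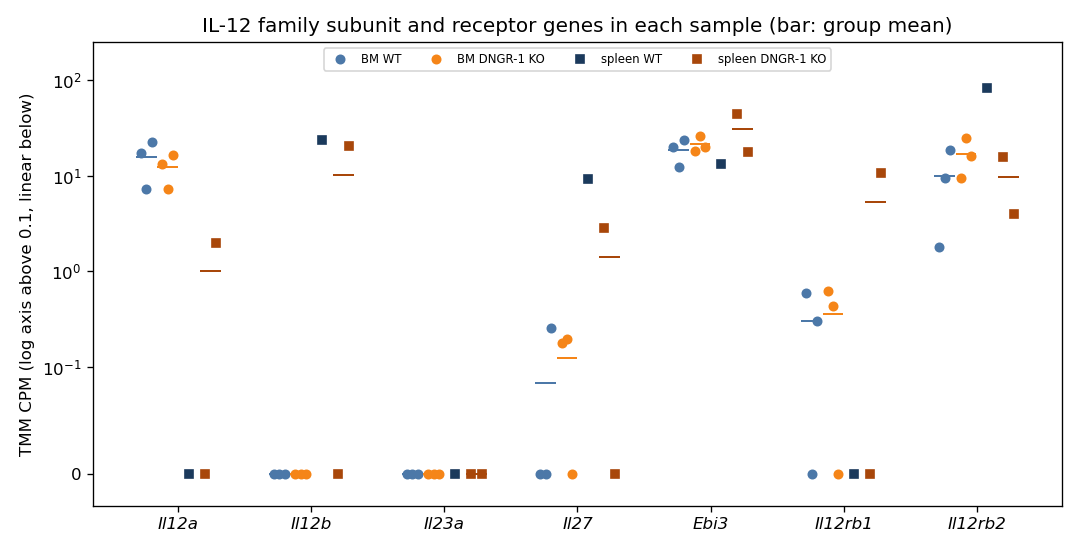
TMM-normalized CPM (vertical axis, logarithmic above 0.1 CPM and linear below) of the IL-12 family subunit genes and the IL-12 receptor genes in each sample, with symbols and group mean bars as in the plot of all cytokine genes. Il12a is high only in the BM samples, Il12b is above 0 only in 2 spleen samples, and Ebi3 lies between 12.4 and 44.0 CPM in all 9 samples.

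The comparison of tissues asks how pre-cDCs that reached the spleen differ from those in BM. It was run with edgeR's quasi-likelihood test over the 9 samples with genotype as a covariate, and p values were adjusted over all 13468 genes tested. Il18 and Il15 passed the threshold of 0.05, both higher in spleen. These were 2 of the 6 listed genes that passed the filter on low counts, beside 7.28% of all genes called higher in spleen and 12.3% called lower. A fit with the replicate number as a block would hold if samples of 1 number shared their mice. In it only Il18 was called, beside 9.25% of all genes in either direction. The other 4 tested were Il12a, Il1b, Tnf and Tgfb1, and Il12b, Il1a, Il6 and Il23a did not pass the filter. Summed over 4 Y-linked genes, KO samples 1 and 2 had 341 and 9 counts in BM and 1193 and 1807 in spleen. The same number thus did not stand for the same mix of donor cells in both tissues, and the block is given only as an alternative fit. The part of donor sex in the tissue differences was not tested.

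Il18 encodes the precursor of an IL-1 family cytokine that drives IFN-γ from T and NK cells. It was at 1.32, 0.416 and 1.98 CPM in WT BM, 1.84, 1.07 and 1.10 CPM in KO BM, 20.2 CPM in the WT spleen sample, and 10.3 and 13.7 CPM in the KO spleen samples. All spleen samples were above all BM samples. The tissue difference was 3.51 ± 0.61 (log2, SE), 11.4-fold, with an edgeR adjusted p of 0.00425. The call held without each of the 9 samples in turn, with log2 values of 3.16 to 3.73 and adjusted p of 0.00428 to 0.0273.

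Il15, which sustains NK cells and memory CD8 T cells, was at 1.86, 0.572 and 2.95 CPM in WT BM and at 5.19, 3.22 and 5.87 CPM in KO BM. In spleen it was at 19.0 CPM in the WT sample and at 16.8 and 10.1 CPM in the KO samples. The spleen samples again lay above all BM samples, as for 9.15% of all genes tested. The tissue difference was 2.33 ± 0.65 (log2, SE), 5.03-fold, with an edgeR adjusted p of 0.0343. The call was lost without any 1 of 6 libraries. By edgeR, the adjusted p rose to 0.0744 without WT BM sample 1, 0.0665 without WT BM sample 3, 0.0639, 0.0689 and 0.0513 without KO BM samples 1, 2 and 3, and 0.201 without the WT spleen sample, where the log2 difference was 1.49. With the replicate block the edgeR adjusted p was 0.0918.

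The receptors of these cytokines were measured in the same cells. Il15ra, which presents IL-15, was at 4.44 to 8.92 CPM in BM and at 27.2, 0 and 29.8 CPM in the WT and KO spleen samples 1 and 2, so that KO spleen sample 1 had Il15 at 16.8 CPM with Il15ra at 0 counts. The tissue difference of Il15ra was 1.57 ± 1.14 (log2, SE; edgeR adjusted p = 0.394). Of the signalling chains, Il2rb, a chain of T and NK cells, was at 0 to 1.25 CPM in BM and at 202, 329 and 800 CPM in the 3 spleen samples, and passed the filter on low counts only through these. Il2rg rose in spleen and was at 85.8 to 155 CPM in BM and at 645, 490 and 716 CPM in spleen (2.53 ± 0.21; edgeR adjusted p = 0.000127).

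Of the IL-18 receptor, Il18rap was at 1.204 to 10.6 CPM in BM and at 25.1, 45.15 and 168 CPM in spleen (4.14 ± 0.89, log2 and SE; edgeR adjusted p = 0.0111, and 0.0543 with the replicate block). Il18r1 was at 0 to 1.07 CPM in BM and at 0.179, 22.5 and 82.0 CPM in spleen, and passed the filter only through spleen samples. Il18bp, the secreted decoy for IL-18, was at 0 to 1.07 CPM in BM and at 0, 7.37 and 3.95 CPM in spleen (edgeR adjusted p = 0.508). Il2rb, Il18rap and Il18r1 had their order among the spleen samples in common with the T cell marker sum, and Il18 and Il15 did not. The NK cell marker Klrd1 did not either, at 8675, 8113 and 13665 counts in the WT and KO spleen samples 1 and 2. An order over 3 samples therefore does not assign a gene to a cell type. The part of T and NK cell RNA in these differences was not tested.

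**Figure D3:**
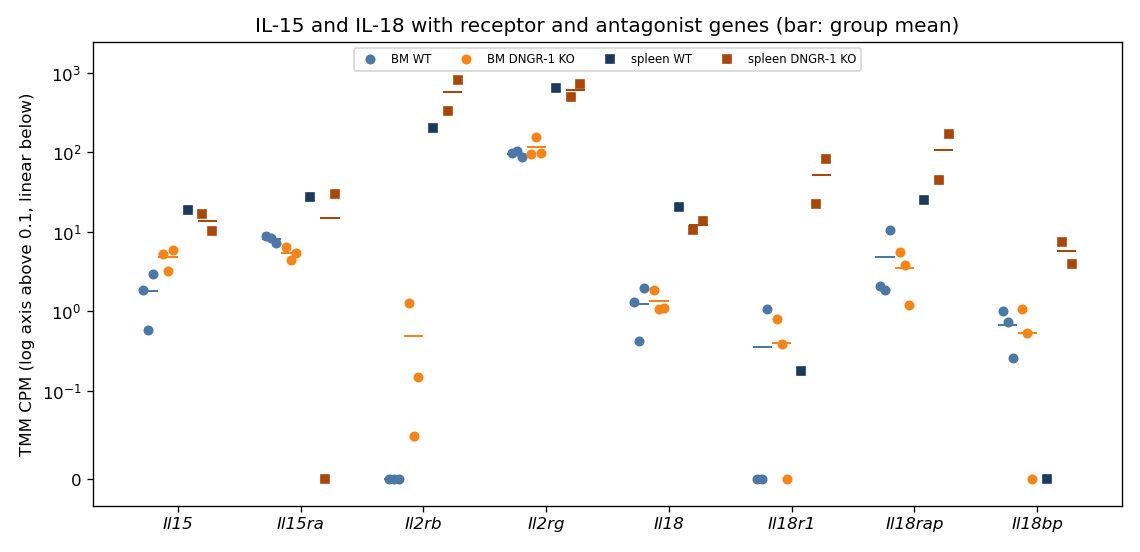
TMM-normalized CPM (vertical axis, logarithmic above 0.1 CPM and linear below) of Il15 and Il18 with their receptor genes and the IL-18 decoy gene Il18bp in each sample, with symbols and group mean bars as in the plot of all cytokine genes. Il15, Il18, Il2rb, Il2rg and Il18rap are higher in all 3 spleen samples than in all BM samples, and Il15ra is at 0 in 1 KO spleen sample.

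Il1b and Il1a each ranged from 0 counts to the highest level of the 9 samples among the spleen samples. Il1b was at 0.419 to 0.676 CPM in WT BM and 0.439 to 0.903 CPM in KO BM. In spleen it was at 3.28 CPM (55 counts) in the WT sample, 10.2 CPM (181 counts) in KO sample 1 and 0 counts in KO sample 2. Its tissue difference of 2.88 ± 1.25 (log2, SE) did not pass the threshold (edgeR adjusted p = 0.140), and of the fits tried it did so only in the one without KO spleen sample 2 (3.41, edgeR adjusted p = 0.00701). Without KO spleen sample 1 the difference was 1.03 (edgeR adjusted p = 0.688). Il1a had 1 to 4 counts in each BM sample and 0 in the WT spleen sample and KO spleen sample 2, against 137 counts (7.70 CPM) in KO spleen sample 1. That library was 60.8-fold above the 6 BM libraries together, which held 15 counts, with a 95% interval of 35.6 to 112 that covers counting error only. KO spleen sample 1, with no IL-12 chain above 3 counts, had the highest Il1a, Il1b and Tnf of the 9 samples. It also had the highest DC marker sum, most of which came from Cd74 and H2-Aa (359384 and 130098 counts). The part of cell composition in these values was not tested.

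The IL-1 receptor genes varied in the same samples. Il1r1, the signalling receptor, was at 1.74 to 10.8 CPM in BM, 14.8 CPM in KO spleen sample 1 and 0 in the other spleen samples. Il1r2, a decoy, was at 1.14 to 5.09 CPM in BM and at 16.2, 22.2 and 0.0425 CPM in the WT and KO spleen samples 1 and 2. Il1rap, the accessory chain, was at 2.76 to 11.1 CPM in BM and 17.9 to 32.4 CPM in spleen (1.995 ± 0.515, log2 and SE; edgeR adjusted p = 0.0247). The edgeR call of Il1rap was lost without WT BM sample 2, KO BM sample 1, the WT spleen sample or KO spleen sample 1, with adjusted p of up to 0.102, and with the replicate block (0.130).

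Tnf was at 7.54, 4.73 and 3.36 CPM in WT BM, at 4.21, 6.25 and 4.67 CPM in KO BM, at 6.14 CPM in the WT spleen sample and at 25.8 and 9.94 CPM in the KO spleen samples. The tissues overlapped, since the WT spleen sample lay within the BM range, and the difference of 1.30 ± 0.61 (log2, SE) did not pass the threshold (edgeR adjusted p = 0.169). It was 0.64 without KO spleen sample 1, 1.82 without the WT spleen sample and 0.27 in WT samples only (1 spleen sample), and passed in none of these. Of its receptors, Tnfrsf1a was at 116 to 180 CPM in BM and 83.1 to 192 CPM in spleen (edgeR adjusted p = 0.667), and Tnfrsf1b at 13.4 to 53.2 and 51.6 to 122 CPM (edgeR adjusted p = 0.0691). Tgfb1 had the smallest tissue difference of the 6 tested, at −0.26 ± 0.61 (log2, SE; edgeR adjusted p = 0.822). It was at 3.47, 6.50 and 2.75 CPM in WT BM, 4.07, 4.59 and 5.02 CPM in KO BM, 4.29 CPM in the WT spleen sample and 1.80 and 4.88 CPM in the KO spleen samples, with overlapping groups. Its direction turned to 0.071 without KO spleen sample 1. Tgfbr2, a signalling receptor chain of TGF-β, was higher in spleen (4.97 to 23.0 CPM in BM, 31.9 to 153 in spleen; 2.45 ± 0.61, log2 and SE; edgeR adjusted p = 0.0206). By edgeR this call was lost without KO BM sample 1, the WT spleen sample or KO spleen sample 2, the last of which had the highest Tgfbr2 and the highest T cell marker sum, with adjusted p of up to 0.0805, and with the replicate block (0.117). Tgfbr1 was at 8.98 to 27.6 CPM in BM and 8.49 to 12.4 CPM in spleen (edgeR adjusted p = 0.248). Il12a, at −4.63 ± 1.65 (log2, SE; edgeR adjusted p = 0.0783), did not pass the threshold by edgeR but did by DESeq2 (−4.64, adjusted p = 0.00124) and by edgeR without KO spleen sample 2, the only spleen library above 0 (adjusted p = 0.00154), where every spleen library left is at 0 and the fitted fold has no meaning as a size. It also passed in WT samples only (edgeR adjusted p = 0.000681), but there the spleen is 1 sample at 0 and the spread comes from the 3 BM samples alone, so this is no replicated result. Without the WT spleen sample the difference was −3.60.

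**Figure D4:**
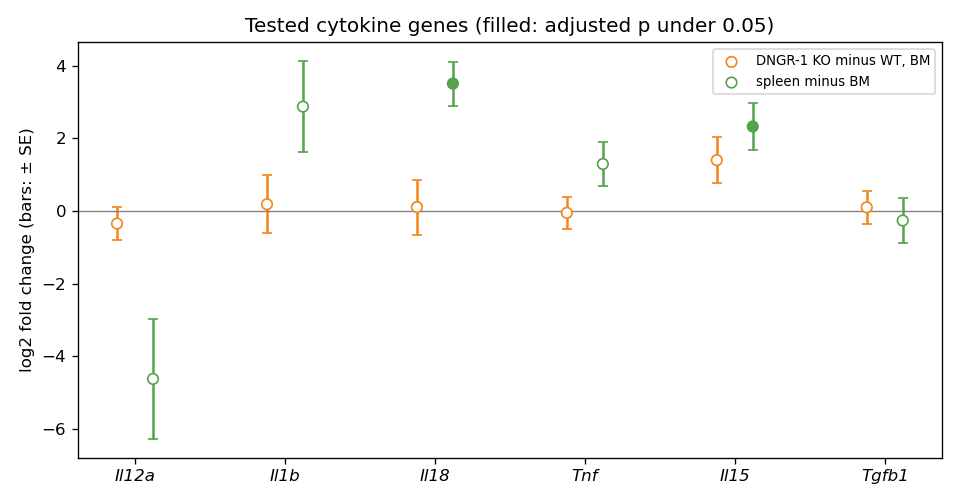
Log2 fold changes (vertical axis) of the 6 listed genes tested, KO minus WT in BM (orange, 3 against 3 samples) and spleen minus BM (green, 3 against 6 samples), with bars of ± 1 SE and filled points where the edgeR adjusted p was under 0.05. The only filled points are Il18 at 3.51 and Il15 at 2.33 in the tissue comparison, and the difference between genotypes in BM farthest from 0 is that of Il15 at 1.40.

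Of 17 receptor genes, 16 were tested, of which Il2rb, Il18r1 and Il12rb1 passed the filter on low counts only through spleen samples and are not counted. Of the other 13, 4 rose in spleen (Il2rg, Il18rap, Tgfbr2 and Il1rap), 0 fell and 9 did not pass. These counts stand beside 7.28% of all genes called higher and 12.3% called lower, as do those of the lists that follow. Leaving out each sample in turn gave 3 to 6 higher and 0 to 1 lower, those 3 genes included, and the replicate block left only Il2rg called besides Il2rb. Of 11 antagonists and brakes, 9 were tested and 5 rose in spleen, with a median log2 difference of 1.51 against −0.18 over all genes tested, leaving out each sample gave 3 to 5, and the replicate block left 2 called. Among them, Nfkbia, the inhibitor of NF-κB, rose from 126 ± 20 CPM over the 6 BM samples to 358 ± 70 CPM over the 3 spleen samples (each ± SD; edgeR adjusted p = 0.000942). Socs3, which restrains cytokine signalling as Socs1 does, was at 0.052 to 1.22 CPM in BM and 13.3 to 30.8 CPM in spleen (edgeR adjusted p = 0.00404). Socs1 was at 0.305 to 0.702 and 2.62 to 26.6 CPM (edgeR adjusted p = 0.00548), and its call was lost with the replicate block (0.0676). In spleen, Socs1 followed the order of the T cell marker sum (44, 156 and 627 counts in WT and KO samples 1 and 2). Socs3, Nfkbia and Zfp36 did not. Such an order over 3 samples does not assign a gene to a cell type, and the part of T cell RNA was not tested. Zfp36, which binds Tnf mRNA and speeds its decay, rose from 282 ± 63 to 571 ± 197 CPM (edgeR adjusted p = 0.0212). By edgeR this call was lost without KO BM sample 1 or the WT spleen sample, with an adjusted p of up to 0.179 and a lowest log2 difference of 0.60, and with the replicate block (0.0611). Il10 was at 0 in all 9 samples, and Il1rn, the IL-1 receptor antagonist, at 0 to 0.403 CPM.

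Of 15 transcription factor genes of cytokine promoters, 14 were tested, 8 rose in spleen, 1 fell and 5 did not pass, with a median of 1.58. Leaving out each sample gave 6 to 9 higher, and the replicate block left 5 of the 9 called. Junb, an AP-1 subunit, rose from 95.6 ± 22.8 CPM over the 6 BM samples to 333 ± 50 CPM over the 3 spleen samples (each ± SD; edgeR adjusted p = 0.000771). Nfkbiz, a nuclear NF-κB cofactor, rose from 5.63 ± 1.495 to 34.9 ± 10.3 CPM (edgeR adjusted p = 0.00245), and Relb, an NF-κB subunit, from 8.001 ± 3.096 to 45.5 ± 7.0 CPM (edgeR adjusted p = 0.00259). Irf4, a factor of cDC2, rose from 29.7 ± 14.3 to 199 ± 96 CPM (edgeR adjusted p = 0.00446). Among the spleen samples, Relb followed the order of the T cell marker sum (631, 852 and 1204 counts in WT and KO samples 1 and 2). Junb, Nfkbiz and Irf4 did not. This order, too, does not assign a gene to a cell type, and the part of T cell RNA was not tested. The gene that fell, named after its values were seen, was Irf8, a factor of pre-cDCs and cDC1 that also acts at Il12b, at 2663 ± 586 CPM in BM and 1080 ± 542 CPM in spleen (−1.35 ± 0.33, log2 and SE; edgeR adjusted p = 0.0202). The Irf8 call was lost without the WT spleen sample (edgeR adjusted p = 0.0699) and with the replicate block (0.0851).

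Of 15 genes of cytokine processing and release, 12 were tested, of which Ltbp1 and Ltbp3, at 0 in all 3 spleen samples, passed the filter on low counts only through the BM samples and are not counted. Of the other 10, 1 rose and 9 did not pass. Leaving out each sample gave 0 to 3 higher, and the replicate block left 0 called. The count was close to the share over all genes. Casp1, which cuts pro-IL-18 and pro-IL-1β, was at 33.4 to 67.7 CPM in BM and at 222, 48.0 and 97.1 CPM in the WT and KO spleen samples 1 and 2 (edgeR adjusted p = 0.0652). Nlrp3, an inflammasome sensor, was at 0.599 to 3.71 CPM in BM and at 3.16, 12.4 and 1.57 CPM in the same spleen samples (edgeR adjusted p = 0.173). The gene that rose was Casp4, the mouse caspase-11, from 5.93 ± 1.54 CPM over the 6 BM samples to 23.4 ± 8.5 CPM over the 3 spleen samples (each ± SD; edgeR adjusted p = 0.00985, 0.0518 without the WT spleen sample and 0.0925 with the replicate block). Ltbp3, a binding partner of latent TGF-β, was at 0 to 2.78 CPM in BM and 0 in all 3 spleen samples.

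Of 11 other myeloid cytokine genes, 5 were tested and 1 rose, Il16, a chemoattractant of CD4+ cells, from 173 ± 36 CPM over the 6 BM samples to 361 ± 98 CPM over the 3 spleen samples (each ± SD; edgeR adjusted p = 0.00705), and leaving out each sample gave 1 to 2. The median of the 5 tested was 0.96. The part of T cell RNA in the Il16 difference was not tested. Of 11 lymphocyte cytokine genes, 3 passed the filter on low counts, of which Ifng and Fasl did so only through the spleen samples, so their count is no result. Ifng was at 0 or 1 count in BM and at 8.23, 15.3 and 18.1 CPM in the WT and KO spleen samples 1 and 2. Fasl had 1 count in 1 BM sample and 0 in the others, and was at 16.1, 1.52 and 34.7 CPM in spleen. Ltb, the membrane-bound partner of lymphotoxin α, was at 0.884 to 2.56 CPM in BM and at 71.4, 116 and 289 CPM in spleen, in the order of the T cell marker sum (edgeR adjusted p = 9.42e-05). Ifng, Fasl and Ltb are genes that T and NK cells express.

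Il18, Il15 and Il12a, the listed genes with the lowest adjusted p by tissue, were set beside all other tested genes by the Pearson r of log2 CPM over the 9 samples, which shared tissue and depth, so that r mostly ordered genes by tissue. The most like Il18 were ENSMUSG00000079808, which has no symbol, Ctso and Prpf39, at 0.98 each. Those for Il15 were Cd38 at 0.97, Gm21994 at 0.97 and Nectin4 at 0.96, and those for Il12a were Faap24, Epha2 and Emc8 at 0.99 each. Il15 and Il18 had an r of 0.89 with each other.

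The comparison of KO with WT pre-cDCs in BM asks what the loss of the receptor changes in precursors from mixed chimeras. By the paper's account, all WT donors carried CD45.1 and all KO donors CD45.2. The loss of the receptor and the congenic difference therefore cannot be told apart here or in spleen. Summed over 4 Y-linked genes, KO BM samples 1, 2 and 3 had 341, 9 and 0 counts and the WT BM samples 0 or 1, and the part of donor sex was not tested. None of the 6 listed genes tested passed the threshold by edgeR over 13016 genes or by DESeq2, beside 0.0307% of all genes called by edgeR, and 1 of the 6, Il15, had an unadjusted p under the threshold, beside 3.83% of all genes. The KO minus WT difference of Il15 was 1.40 ± 0.63 (log2, SE), 2.65-fold, with an edgeR adjusted p of 0.861, and its means were 1.79 ± 1.19 CPM in WT and 4.76 ± 1.38 CPM in KO (SD, n = 3 each). Its lowest KO value, 3.22 CPM, was above its highest WT value, 2.95 CPM, an order that 4.79% of all genes tested showed. The summed monocyte and macrophage markers had the same order in these samples, at 1621 to 1819 CPM in WT and 1859 to 2585 CPM in KO BM. Of these 7 markers, 6 were tested, 0 passed and the median log2 difference was 0.63, and Mertk was at 0 to 7 counts. Their part in the Il15 difference was not tested. Without each sample in turn, the difference stayed between 0.98 and 1.97 (log2), with edgeR adjusted p of 0.560 to 0.9999.

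Il15ra had the opposite order in the same samples, at 8.92, 8.32 and 7.12 CPM in WT BM and 6.45, 4.44 and 5.42 CPM in KO BM. Every KO value was below every WT value, as for 4.75% of all genes tested, and the difference of −0.58 ± 0.35 (log2, SE) did not pass the threshold (edgeR adjusted p = 0.861). The other 5 listed genes overlapped between the genotypes. Their differences (KO minus WT, log2 ± SE) were −0.35 ± 0.45 for Il12a, 0.19 ± 0.80 for Il1b, 0.11 ± 0.76 for Il18, −0.05 ± 0.44 for Tnf and 0.10 ± 0.46 for Tgfb1, with edgeR adjusted p of 0.900 to 0.986. The sign of each of these 5 turned when at least 1 of the BM samples was left out, so no direction is given for them. Il12b and Il23a were at 0 in both genotypes, and Il1a had 2 to 4 counts in WT and 1 to 3 in KO BM.

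None of the 53 genes tested from the pathway lists passed the threshold in BM by edgeR or DESeq2, and 1 of the 53, Il6st, had an unadjusted p under it, a smaller share than the 3.83% over all genes. Il6st, the shared signalling chain of the IL-6 receptor, was at 72.6 ± 29.8 CPM in WT and 121 ± 17 CPM in KO BM (SD, n = 3 each; 0.73 ± 0.33, log2 and SE; edgeR adjusted p = 0.861), and was named after its values were seen. The medians of the lists were 0.27 for receptors, 0.17 for processing and release, 0.21 for antagonists and brakes, 0.19 for other myeloid cytokines and 0.31 for transcription factors, against −0.00447 over all genes tested (log2), and the 1 lymphocyte cytokine gene tested, Ltb, was at 0.08.

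In spleen, the single WT sample left no replicate check between genotypes, and no p value was computed. At least a 2-fold difference from the WT sample in the same direction in both KO samples was found for none of the 10 genes. Over all 13468 genes the share was 22.8%. Il12b, Il1a, Il6 and Il23a are not among these 13468, and Il6 and Il23a, at 0 counts in every spleen sample, could not pass. Sample 1 alone was past 2-fold for 5 genes, above the WT sample for Il1a, Il1b and Tnf and below it for Il12b and Tgfb1, and sample 2 alone for 2, above it for Il12a and below it for Il1b. Over all 13468 genes, the shares past 2-fold were 39.8% for sample 1 alone and 42.7% for sample 2 alone. Of the listed genes within that set, Il1b, Tnf and Tgfb1 were past it in sample 1, and Il12a and Il1b in sample 2. Il12b and Il1a lie outside the set, so the counts of listed genes are not comparable with these shares. Il15, Il18, Il12b and Tnf had 1 direction in both, Il12b with 0 and 20.3 CPM against 23.7 CPM in the WT sample. In log2 CPM against the WT sample, Il15 was −0.18 and −0.90 and Il18 −0.96 and −0.56 in KO samples 1 and 2, and Tnf was 2.05 and 0.68. Beside these values, the 4 Y-linked genes summed to 0 counts in the WT spleen sample and to 1193 and 1807 counts in the KO samples, and the T cell marker sum was 1142 and 3653 against 836 CPM. The part of donor sex or of T cell RNA in these differences was not tested.

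Whether the genotype difference itself changed with the tissue was tested as an interaction in edgeR over the 9 samples, where the lone WT spleen sample is assumed to vary like the other groups. This test was added after the values had been seen. None of the 6 listed genes tested passed the threshold, beside 8.85% of all genes tested. The interaction (spleen minus BM of the genotype difference, log2 ± SE) was −1.90 ± 1.13 for Il15 (edgeR adjusted p = 0.363) and 7.66 ± 3.46 for Il12a (edgeR adjusted p = 0.235), the latter resting on the 47 counts of 1 library against libraries at 0.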

How the data were processed

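The authors deposited 1 table of expected counts per gene, not normalized, in which 25.6% of nonzero values were not whole; these were rounded. Per the labels' processing notes, Trimmomatic 0.36, STAR 2.5.2, RSEM 1.3.0, DESeq2 1.18.1, R 3.4.3 and the build GRCm38 were used. Reads shared by near-identical genes may be divided between them by RSEM. The authors' table of values after variance stabilization was not used here.

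Levels are CPM after TMM normalization (edgeR 4.0.16, R 4.3.3), and log2 CPM used a prior count of 2. Genotypes in BM (3 against 3) and tissues (3 spleen against 6 BM, genotype as covariate) were tested with edgeR's quasi-likelihood test after filterByExpr, with Benjamini-Hochberg adjustment over all genes tested and a threshold of 0.05. Samples of 2 pooled mice each came from 6 mice in total, so they are not all independent, and p values measure the spread between these samples, which may be technical. Replicates differed beyond sampling noise (chi-square per gene 30.8 to 267). Intervals and floors of 3 counts cover counting error only. Symbols, coordinates and exon lengths came from GENCODE M21, and promoter windows from RefSeq (GRCm38.p6).

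The members and lists were chosen with earlier results of these data known. Named are the 10 genes, at most 4 called genes per list, receptors and subunits of a described cytokine, and the 3 genes most alike by r. Some uncalled list genes outside this rule are also named, such as Casp1, Nlrp3, Il18bp, Il10 and Il1rn. Only Irf8 and Il6st are marked as named after their values were seen. Tests were also run on simulated counts of independent libraries. These hold no shared mice and no mixed cell types, so that check does not cover either. Alternatives were other scaling, DESeq2 1.42.0, other filters, the replicate number as a block, other sample sets, a score of the CD45 congenic interval as a covariate, and each sample left out.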

Additional observations from a re-analysis of the deposited data

Results flagged for a closer look

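Il15 had opposite orders of the genotypes in the tissues. Every DNGR-1 KO sample was above every WT sample in BM, with a mean difference of 1.57 in log2 CPM (DNGR-1 KO minus WT), and both DNGR-1 KO samples were below the single WT sample in spleen, with a mean difference of −0.54. The interaction (spleen minus BM of this difference) was −1.90 ± 1.13 (log2, SE). It was fitted after these values had been seen, and the spread of the lone WT spleen sample is assumed. It therefore does not decide whether the genotype difference changed with the tissue.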

How the results depend on the processing

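In BM, no listed gene was called under any setting tried. Over all genes, 11 were called by DESeq2 and 10 without a filter on low counts, against 4 as reported, and 2 to 15 when each sample was left out. The sign of Tnf in BM turned with the replicate number as a block (0.012) and with the congenic score as a covariate (0.091). That score overlapped between the genotypes, at −0.309, 0.112 and 0.140 in WT BM and 0.070, 0.101 and −0.114 in KO BM samples 1 to 3. As a covariate it therefore cannot separate the congenic difference from the genotype. Leaving out single samples gave log2 differences of −0.28 to 0.32 for Tnf, −0.13 to 0.55 for Tgfb1, −0.30 to 0.63 for Il18, −0.20 to 0.39 for Il1b and −0.69 to 0.0019 for Il12a.

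Between tissues, the 2 listed genes called became 1 with at least 10 counts in every sample (where 3 were tested), 1 with the replicate number as a block, 1 in DNGR-1 KO samples only and 4 in WT samples only, and 1 to 4 when each sample was left out. In WT samples only, the spleen is 1 sample, assumed to vary like the BM samples, and the 4 include Il12a and Il12b, each at 0 in 1 of the tissues. All genes called numbered 1246 with the block, 1336 in DNGR-1 KO samples only and 5201 in WT samples only, against 2631. Il15 was at an edgeR adjusted p of 0.0503 without a filter, 0.0918 with the block and 0.198 in DNGR-1 KO samples only. Its adjusted p was 0.00246 by DESeq2 and 0.00674 by edgeR with at least 10 counts in every sample, a filter that Il18 did not pass. Tgfb1 was at −0.58 to 0.071 when each sample was left out and at 0.046 in WT samples only. Il12b, at 0 in all BM samples, enters a fit only through spleen samples where it is high, so its calls under a filter by the design matrix (chosen after seeing the data), without a filter, without DNGR-1 KO spleen sample 1 and in WT samples only are no result. The cause of these changes was not tested. Same-numbered WT and DNGR-1 KO BM samples had correlated deviations of 0.103, 0.0989 and −0.0815, and 1 of the 3 WT samples correlated best with its own number, so these values alone do not make the numbers pairs. Since 6 mice gave 9 samples of 2 mice each, some samples share mice, and results that lost their call with the block are given with it. The block changed no call of a listed gene in BM.

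In spleen, 2 listed genes were past 2-fold without DNGR-1 KO replicate 1 and 5 without DNGR-1 KO replicate 2, against 0 with both. All genes past 2-fold went from 3072 to 5748 and 5360, in a set that excludes Il12b and Il1a, which are among the 5. A depth of 17103806 counts or more cannot show levels under 0.127 to 0.18 CPM, which limits Il6 and Il23a in all samples.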
